A study of Mus musculus with 32 samples.

Results

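Untreated mesentery of F1 hybrids between BALB/c and DBA mice was compared, gene by gene, with the mean of the 2 parent strains, the mid-parent value. The comparison rests on 9 arrays, 3 from each of the F1 (named CDF1 in the titles), BALB/c and DBA, out of 32 arrays in the series, and on 12590 autosomal genes out of 13016 genes tested. All 9 arrays came from animals given no agent and had sample codes between 195 and 203. Another 9 arrays, 3 of each genotype taken 3 days after an intraperitoneal dose of 0.5 ml of TMPD, the hydrocarbon oil called pristane, are used as a second reading of the same genotypes. The labels give neither the age or sex of the animals, nor which strain was the mother of the F1, nor whether each array is a separate animal, so the p-values measure the spread between arrays.

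Mesentery is the fold of fat, vessels, lymphatics and mesothelium that carries the gut, and it is where pristane-induced plasmacytomas form in BALB/c mice, while DBA mice resist them. An F1 cell carries 1 set of chromosomes from each parent. A gene whose alleles differ in cis, each keeping its own output, gives an F1 level at the arithmetic mean of the parents on the linear scale. The classes used here are set against the mean on the log2 scale, which lies lower, so additive means additive in log2. A regulator that acts on both alleles, or a response of the whole animal, can bring the F1 to the level of 1 parent (dominant) or outside both (over-dominant).

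Among 12590 genes, 39 lay off the mid-parent on the log2 scale, 21 above it and 18 below it. Among the 318 genes with the largest strain differences, chosen on the same arrays, the F1 lay between the parents for 282. Its median place was 0.48 of the way from the lower to the higher parent on the linear scale. For 413 genes chosen by their strain difference on day 3, the untreated F1 lay between the parents for 271. It did so for 152 of the 161 that were also among the 318. The F1 was called against both parents, on the same side, for 12 genes, led by Sult1e1 above and Tuba8 below. The F1 and parental controls also differed in transcripts that mark sex, described below. Sex and F1 status therefore cannot be told apart in these arrays. In the lists of 10 B cell markers and 16 heat shock genes the median F1 minus BALB/c difference was -1.03 and -0.53 (log2), and the median F1 minus DBA difference 0.06 and 0.09.

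Signals are on a linear scale, and differences are of log2(signal + 24.9), where the offset keeps dim values from inflating a ratio and makes the change of dim genes look smaller. Each gene is represented by its brightest probe set, and genes above a signal of 103.7 on at least 3 arrays were tested. A gene is called where limma's test across all genes gave an adjusted p under 0.05 (Benjamini-Hochberg). The standard error (SE) of an F1 deviation had a median of 0.16 over genes, and the smallest deviation called was 0.36.

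The F1 controls differed from the parents in more than genotype. Xist, a noncoding RNA made from the inactive X of female cells, was at 55 to 107 in the F1 controls and at 17100 to 26200 in the 6 parental controls. Kdm5d, carried on the Y chromosome, was at 479 to 668 in the F1 controls and at 6.4 to 25.4 in the parents. The sex these transcripts mark and F1 status therefore cannot be told apart within the 9 arrays. All 9 day 3 arrays, F1 included, had high Xist. F1 control replicate 1 also stood apart: 10 intestinal epithelial genes averaged 10.8 on the log2 scale against 6.42 and 6.59 in the other F1 controls and 6.02 to 7.7 in the parents. In that array Fabp2, a fatty acid binding protein of enterocytes, was at 11400 against 46.4 and 81.2 in the other F1 controls. Genes of mesentery were expressed in all 9 arrays. List means were 12.63 to 13.26 for adipocytes, 10.20 to 11.24 for mesothelium and 10.43 to 10.92 for endothelium. Of 11 mesothelial genes, 3 were called lower in DBA than in BALB/c, where 7.76% of all genes were called in either direction. Smooth muscle and neuronal or glial lists varied more, with means of 11.67 to 13.54 and 6.75 to 8.64, and the parts of these lists in the results were not tested.

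**Figure D1:**
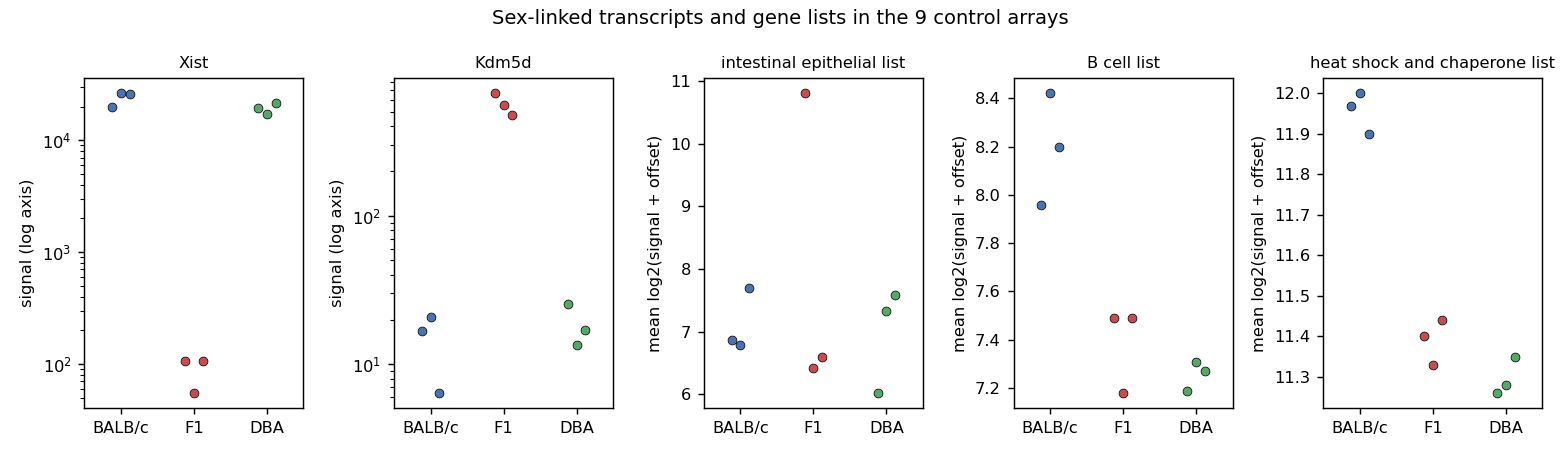
Signals of Xist and Kdm5d (log axes) and the mean log2(signal + 24.9) of 3 gene lists in the 3 BALB/c, 3 F1 and 3 DBA control arrays, 1 point an array. Xist and Kdm5d separate the F1 from both parents, F1 replicate 1 is alone at 10.8 for the intestinal list, and the B cell and heat shock lists place the F1 near DBA and below BALB/c.

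Between the parents, 977 genes were called (7.76% of those tested), 512 higher and 465 lower in DBA. The F1 differed from BALB/c controls at 338 genes (2.68%) and from DBA controls at 158 (1.25%). Against the mid-parent 39 genes were called (0.31%), and 1182 had an unadjusted p under 0.05. The F1 estimate lay between the parents for 865 of the 977 strain-differing genes (88.5%), which were chosen on the same parental arrays. With 3 arrays a group, 938 of the 977 could not be placed in a class, so the class sizes that follow count the genes with the clearest differences and are not shares of additive or dominant genes. The mid-parent count fell to 25, 20 and 21 without F1 control replicate 1, 2 or 3, and 12 of the 39 genes stayed called whichever of the 9 arrays was left out. With a term for high Xist, estimated on all 32 arrays, 5 genes stayed called: Ildr2, Mrap2, Pmepa1, Rarres1 and Xaf1. All 39 kept the sign of their deviation with this term.

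**Figure D2:**
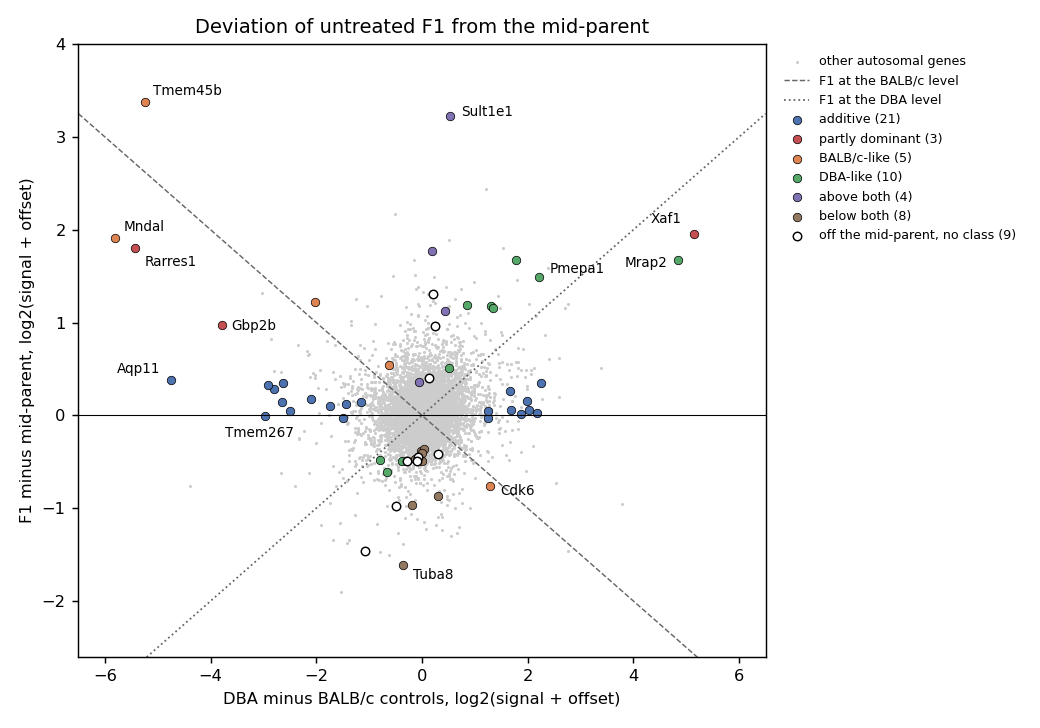
Each point is 1 autosomal gene, with DBA minus BALB/c on the x axis and F1 minus mid-parent on the y axis, both differences of log2(signal + 24.9). The dashed and dotted lines show where an F1 at the BALB/c or the DBA level would lie. The 21 additive genes lie along 0, Tmem45b, Xaf1, Mndal, Rarres1 and Mrap2 lie above 0 at large strain differences, and Sult1e1 and Tuba8 lie far from 0 with little strain difference.

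The promoters of Xaf1 and Mndal are shown because both genes are interferon-inducible, both lay off the mid-parent, and by its brightest probe set each was near background in 1 parent. The sequences are RefSeq promoter windows of GRCm38.p6, the C57BL/6J reference, so they hold neither parent's variants. Capitals mark matches, on either strand, to AANNGAAA, the core bound by interferon regulatory factors. Of all 32851 promoter windows of this length, 23.9% held at least 1 match. The Xaf1 window, chr11:72301379-72301678 on the plus strand, held 2 matches, and the Mndal window, chr1:173880138-173880437 on the minus strand, held 1. RefSeq gives Mndal 2 overlapping windows, and the other, chr1:173879909-173880208, also held 1 match.
Xaf1: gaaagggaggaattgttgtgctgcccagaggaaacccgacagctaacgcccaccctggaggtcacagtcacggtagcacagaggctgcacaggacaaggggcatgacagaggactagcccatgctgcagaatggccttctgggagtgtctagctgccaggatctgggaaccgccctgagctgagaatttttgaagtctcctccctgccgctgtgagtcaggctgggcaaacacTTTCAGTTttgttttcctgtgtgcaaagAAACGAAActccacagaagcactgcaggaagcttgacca
Mndal: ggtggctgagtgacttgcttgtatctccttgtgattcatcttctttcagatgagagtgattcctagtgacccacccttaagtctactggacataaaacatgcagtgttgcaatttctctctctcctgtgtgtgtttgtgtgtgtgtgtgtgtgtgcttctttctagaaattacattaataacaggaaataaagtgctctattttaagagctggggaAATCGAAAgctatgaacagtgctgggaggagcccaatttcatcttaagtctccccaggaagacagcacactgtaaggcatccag
A match describes letters and says nothing about binding.

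Mndal, a member of the interferon-inducible Ifi200 family, was a BALB/c gene that kept about the linear mean in the F1. Its signals were 3600, 3790 and 4400 in BALB/c, 1480, 1850 and 2700 in the F1, and 46.2, 58.0 and 34.1 in DBA. All 3 F1 arrays lay between the parents without overlap. On the log2 scale the F1 was 1.91 ± 0.37 (SE) above the mid-parent (limma adjusted p = 0.015) and 1.00 below BALB/c (adjusted p = 0.27), which classed it as BALB/c-like. On the linear scale the F1 was at 51.2% of BALB/c, and the deviation from the arithmetic mean of the parents was -0.02 (adjusted p = 1). The next probe set of Mndal read 1470, 1490 and 1620 in BALB/c, 677, 496 and 701 in the F1, and 0.8 to 7.3 in DBA. The brightest Mndal probe set is of a kind that can also bind close relatives. Of its relatives, Ifi202b deviated by 0.06 (adjusted p = 0.98), Ifi204 by 0.13 (adjusted p = 0.94) and Ifi203 by 0.36 (adjusted p = 0.76).

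The partly dominant class, in which the F1 differed from both parents and from the mid-parent, held 3 genes: Xaf1, Rarres1 and Gbp2b. Xaf1, an interferon-inducible antagonist of the apoptosis inhibitor XIAP, gave 49.3, 51.4 and 50.4 in BALB/c, 1770, 1710 and 1650 in the F1, and 2340, 2900 and 2710 in DBA. The F1 sat 1.95 ± 0.11 above the mid-parent (adjusted p = 1.4e-11) and 0.62 below DBA (adjusted p = 0.0099). The other tested probe set of Xaf1 ran the opposite way between strains, with 581, 686 and 876 in BALB/c, 552, 449 and 464 in the F1, and 138, 122 and 150 in DBA, so the direction of its strain difference depends on the probe set. Both put the F1 between the parents and nearer the higher on the log2 scale.

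Rarres1, a retinoic acid receptor responder, fell from 2630, 3240 and 3610 in BALB/c to 1290, 1740 and 2040 in the F1 and 45.9, 44.5 and 56.6 in DBA. Its F1 deviation was 1.80 ± 0.16 (adjusted p = 1.3e-07). Gbp2b, an interferon-inducible guanylate-binding protein, gave 1840, 1960 and 2030 in BALB/c, 994, 1080 and 991 in the F1, and 107, 144 and 106 in DBA, with a deviation of 0.98 ± 0.16 (adjusted p = 0.0022). The mean F1 signal was 53.4% of that of BALB/c for Rarres1 and 52.5% for Gbp2b.

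Measured against the arithmetic mean of the parents, the partly dominant class emptied. The deviation became 0.06 for Rarres1 (adjusted p = 0.98), -0.01 for Gbp2b (adjusted p = 1), 0.34 for Xaf1 (adjusted p = 0.36) and 0.20 for Mrap2 (adjusted p = 0.91). In all, 38 genes were called against the linear mid-parent, 32 of them shared with the log2 test. The 7 called on the log2 scale alone were Gbp2b, Mndal, Mrap2, Rarres1, Slc16a12, Tmem45b and Xaf1. The 6 called on the linear scale alone were Fads1, Mlx, Pecr, Sfi1, Stab2 and Tgm3. Stab2, a scavenger receptor for hyaluronan on sinusoidal and lymphatic endothelium, was at 1160, 1450 and 1390 in DBA but at 191, 126 and 182 in the F1, close to the 73.6, 113 and 45.3 of BALB/c, and lay 1.94 ± 0.28 below the linear mid-parent (adjusted p = 0.0019).

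**Figure D3:**
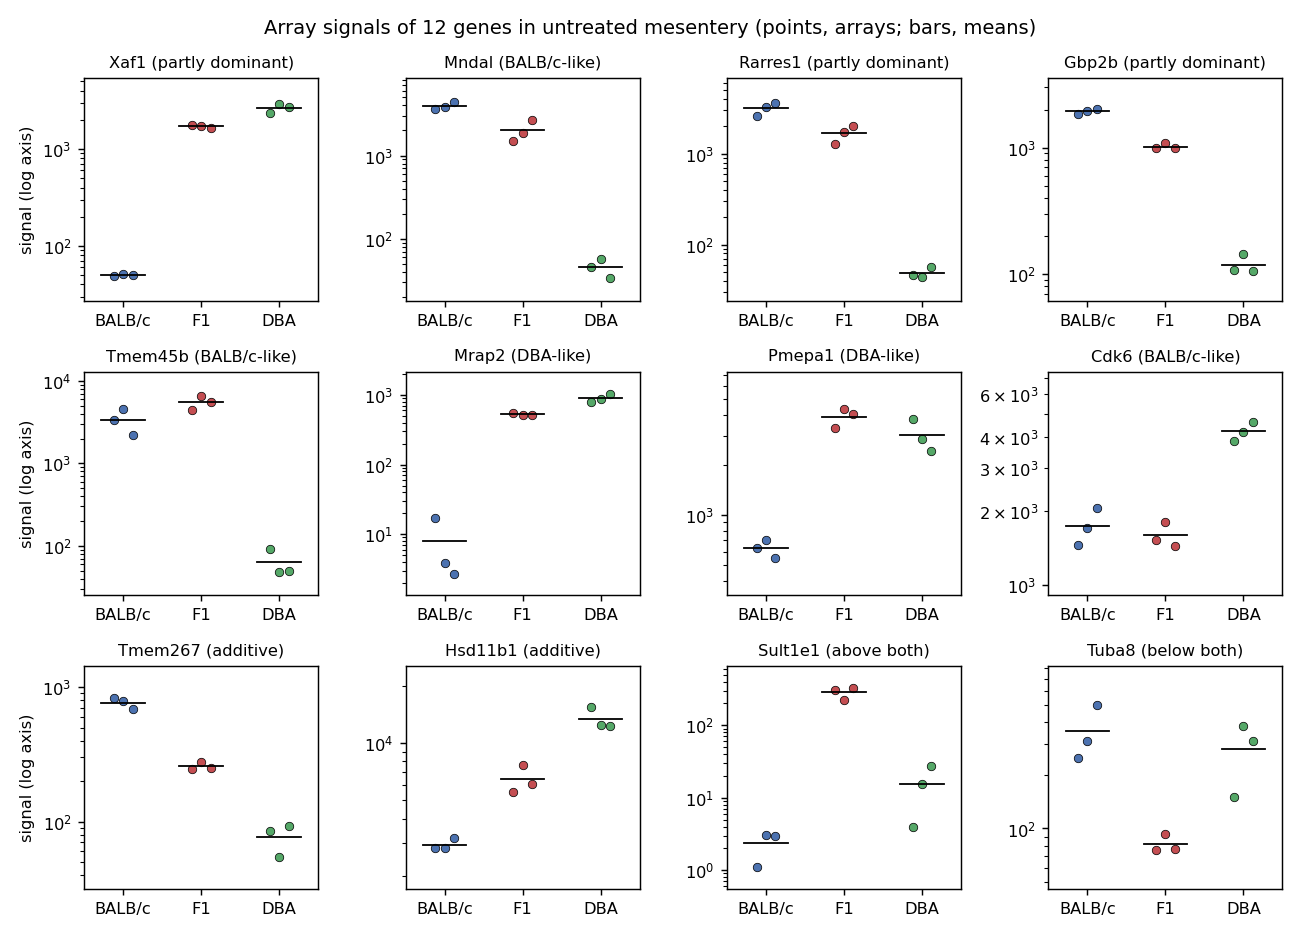
Signals of 12 genes in the 9 control arrays on log axes, with points for arrays and bars for group means. The F1 arrays lie between the parents for Xaf1, Mndal, Rarres1, Gbp2b, Tmem267 and Hsd11b1, and outside both for Sult1e1 (above) and Tuba8 (below).

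Positions across all strongly strain-differing genes showed the same dependence on scale. For 318 genes with a called strain difference of at least 1 (log2), the F1 position was scaled so that 0 is the lower and 1 the higher parent. The median was 0.61 on the log2 scale (quartiles 0.39 and 0.77) and 0.48 on the linear scale (quartiles 0.29 and 0.65). In the 3 F1 arrays taken singly the log2 median was 0.64, 0.61 and 0.58. The log2 median rose with the size of the strain difference, from 0.59 for 196 genes between 1 and 1.5 to 0.83 for 11 genes of 3 or more, while the linear median stayed between 0.46 and 0.51. Genes higher in DBA had a linear median of 0.52 (159 genes) and those higher in BALB/c 0.41 (159 genes). For 142 of the 318, the 95% interval of the F1's deviation from the mid-parent stayed between the 2 parental means. Those means were taken at their estimates, so this is no test against each parent. Of these 318 genes, 121 had a second tested probe set, and in 103 (85.1%) it gave the same direction between strains. For those 103, a selection made after seeing the data, the medians were 0.64 on the log2 and 0.51 on the linear scale. The 318 were chosen on the parental arrays that also set the position, which favours an F1 between the parents. Another 413 genes were chosen by a called strain difference of at least 1 on day 3, and 161 of them were also among the 318. For the 413 the untreated F1 lay between the parents for 271 (65.6%), above both for 107 and below both for 35. Their untreated medians were 0.69 on the log2 and 0.56 on the linear scale. For the 161 genes in both sets the F1 lay between the parents for 152 (94.4%), with medians of 0.64 and 0.49. The rest of the 413 had no called strain difference of at least 1 untreated, so their positions rest on smaller or less certain differences.

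**Figure D4:**
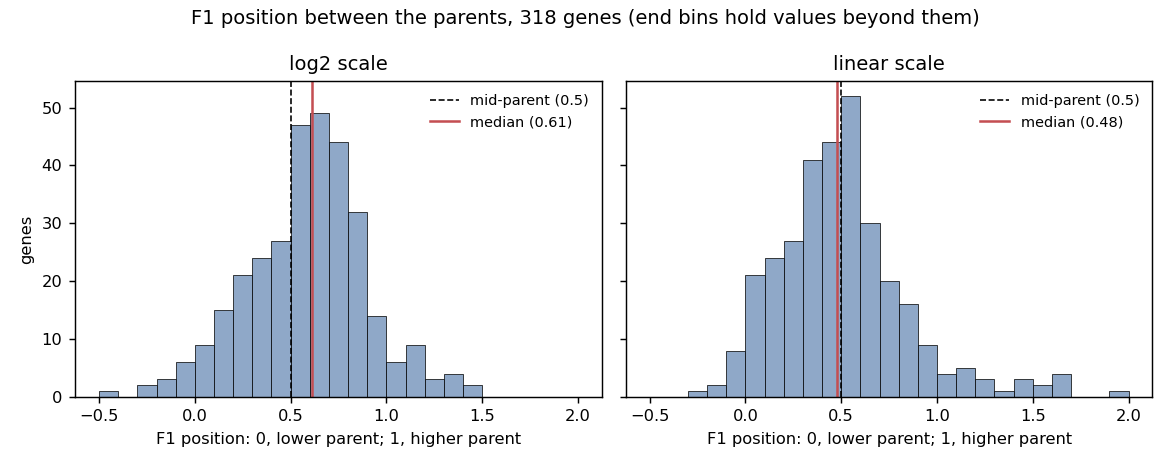
Histograms of the F1 position for 318 genes with a strain difference of at least 1 (x axis, 0 for the lower and 1 for the higher parent; y axis, number of genes), on the log2 scale at left and the linear scale at right. The red line, the median, is at 0.61 on the log2 scale and 0.48 on the linear scale; the dashed line marks 0.5.

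A set of genes was near background in 1 parent. In 32 genes, 19 of them BALB/c and 13 DBA genes, the strain difference was called and at least 2 (log2), with the mean of the lower parent under the dim limit of 103.7. The F1 stood at a median of 51.4% of the expressing parent (quartiles 40.3% and 63.8%), and 14 of the 32 lay between 40% and 60%. Of the 9 with a second tested probe set, 8 gave the same direction between strains, with a median share of 51.4%, and Xaf1, counted here as a DBA gene, gave the opposite one. No parental sequence was used here, so whether a low signal marks low RNA or probes that match that strain poorly was not tested. The extremes ran from 8.76% to 164%. Ncan, a chondroitin sulfate proteoglycan, reached 114% of the DBA mean, though its DBA arrays ranged from 209 to 897. Fxyd3, a regulator of the sodium pump, reached 85.3% of BALB/c, with 430, 499 and 407 in the F1 against 457, 438 and 670. At the low end, Tgm3, a transglutaminase, was at 244, 261 and 341 in the F1 against 3130, 1080 and 3750 in BALB/c, or 10.6%. Fbxo44, a substrate receptor of a ubiquitin ligase, was at 16% of BALB/c. On day 3 the median share for these 32 genes was 61.7%.

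The additive class held 21 genes, called against each parent but not against the mid-parent, with deviations of at most 0.38 in size. Tmem267, which encodes a transmembrane protein, gave 832, 782 and 686 in BALB/c, 245, 277 and 250 in the F1, and 84.5, 54.4 and 93.4 in DBA, with a deviation of 0.00 ± 0.20. Hsd11b1, the enzyme that regenerates active glucocorticoid in fat, gave 2800, 2820 and 3160 in BALB/c, 5530, 7680 and 6080 in the F1, and 15500, 12400 and 12200 in DBA, with a deviation of 0.03 ± 0.18. Chchd4, which imports proteins into the mitochondrial intermembrane space, gave 556, 606 and 604, then 1220, 1340 and 1300, then 1980, 1970 and 1810 in BALB/c, F1 and DBA. For each of these genes the 3 groups did not overlap.

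Among other BALB/c-high genes of the additive class Hal, which begins histidine breakdown, was at 41.3% of BALB/c in the F1. Adi1 of methionine salvage was at 44.0%, and Psmb6, a catalytic subunit of the proteasome, at 74.3%. The Adi1 probe sets, from brightest to dimmest, gave strain differences (DBA minus BALB/c) of -2.65, -5.11 and 0.34. Their F1 deviations were 0.15, 1.14 and -0.17, so its class depends on the probe set. Among DBA-high genes the F1 stood at 54.0% of DBA for Arsk (a lysosomal sulfatase) and 51.3% for Rpl14 (a protein of the large ribosomal subunit). Aqp11, an intracellular aquaporin, had the largest strain difference of the class, -4.74, and the F1 was at 23.8% of BALB/c. A deviation that was not called does not show exact additivity: the 95% interval of Aqp11 ran from -0.55 to 1.30. For 18 genes of the additive and dominant classes with a second tested probe set, the strain difference ran the same way in 12. Hspa13, an Hsp70-family protein, was an exception: its brightest probe set was higher in BALB/c, and the next gave 320 to 457 in BALB/c, 852 to 939 in the F1 and 1320 to 1650 in DBA.

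The BALB/c-like class held 5 genes: Mndal, Tmem45b, Ildr2, Cdk6 and Gab2. Tmem45b, a transmembrane protein, gave 3350, 4590 and 2200 in BALB/c and 4430, 6650 and 5500 in the F1, against 91.3, 48.3 and 49.1 in DBA. The F1 range overlapped BALB/c, and its deviation was 3.37 ± 0.45 (adjusted p = 0.00013), or 1.71 (adjusted p = 0.18) against the linear mid-parent. Ildr2, an immunoglobulin-like receptor, gave 1930, 1600 and 2750 in BALB/c, 1830, 2360 and 3100 in the F1, and 415, 566 and 485 in DBA. Its deviation was 1.23 ± 0.15 (adjusted p = 4.4e-05), and 0.90 (adjusted p = 0.0081) on the linear scale. A second Ildr2 probe set deviated by 0.46, and the dimmest deviated by 0.66 and ran the opposite way between strains. Cdk6, a kinase that drives cells out of G1, ran the other way: 1450, 1700 and 2060 in BALB/c, 1520, 1810 and 1440 in the F1, and 3860, 4200 and 4640 in DBA, with a deviation of -0.76 ± 0.16 (adjusted p = 0.021). Gab2, an adaptor of receptor tyrosine kinases, had F1 signals of 1310, 1290 and 1340, all above the 1050 to 1150 of BALB/c and the 693 to 745 of DBA. The difference of Gab2 from BALB/c, 0.23, was not called (adjusted p = 0.43). Its dimmer probe sets, at mean signals of 101 and 68.3, ran the opposite way between strains, by 0.15 and 0.77 against -0.62 for the brightest. Its mid-parent call was lost without BALB/c replicate 3 or any single F1 replicate.

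The DBA-like class held 10 genes. Pmepa1, an inhibitor of TGF-beta signalling that TGF-beta itself induces, gave 629, 707 and 545 in BALB/c, 3320, 4350 and 4050 in the F1, and 3770, 2880 and 2420 in DBA. Its deviation was 1.49 ± 0.18 (adjusted p = 4.4e-05), and 1.1 (adjusted p = 0.0081) against the linear mid-parent. A second Pmepa1 probe set gave a deviation of 1.43. Mrap2, an accessory protein of melanocortin receptors, was at 2.7 to 17.3 in BALB/c, 508 to 552 in the F1 and 805 to 1050 in DBA, with the F1 at 58.2% of DBA. It deviated by 1.68 ± 0.22 on the log2 scale (adjusted p = 0.00013).

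Several DBA-like genes had F1 means beyond the DBA mean, though their difference from DBA was not called. Serpina1b, an alpha-1 antitrypsin whose probes can also bind its close relatives, gave 6500, 9220 and 5420 in the F1 against 6090, 3520 and 2900 in DBA and 852 to 1330 in BALB/c. Angptl7, a secreted angiopoietin-like protein, gave 357, 379 and 372 in the F1, above the 162 to 262 of DBA and the 99.1 to 106 of BALB/c, and its F1 and DBA arrays did not overlap. Slc16a12, a monocarboxylate-family transporter, gave 254 to 296 in the F1, 167 to 210 in DBA and 39.7 to 73.9 in BALB/c. Irak2, a kinase of Toll-like and interleukin-1 receptor signalling, stood 0.51 ± 0.10 above the mid-parent (adjusted p = 0.02). The genes of this class that were lower in the F1 and DBA than in BALB/c were Hspe1, Hddc3 and Tmem33. Hspe1, the mitochondrial co-chaperonin, gave 10700, 13500 and 12300 in BALB/c, 6060, 6550 and 7100 in the F1, and 6900, 6820 and 7080 in DBA, with a deviation of -0.48 ± 0.09 (adjusted p = 0.0085).

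The over-dominant genes were 4 above and 8 below both parents. Sult1e1, the estrogen sulfotransferase, gave 302, 222 and 329 in the F1 against 1.1 to 3.1 in BALB/c and 4.0 to 27.6 in DBA, which are both under the dim limit. Its deviation, 3.22 ± 0.52 (adjusted p = 0.0023), depends on the offset because the parents are near background. Among the other 23 arrays its difference between high-Xist and low-Xist arrays was -1.49 (limma adjusted p = 0.13). Nrep, a protein of regenerating neurons and contractile fibroblasts, gave 3340, 3620 and 3030 in the F1 against 1270 to 1330 in BALB/c and 1640 to 1960 in DBA. Its deviation was 1.13 ± 0.19 (adjusted p = 0.0027), and 0.99 from a second probe set. Gab1, an adaptor related to Gab2, gave 1460, 1510 and 1400 in the F1 against 1060 to 1190 in both parents, a rise of 0.36 ± 0.08 over the mid-parent (adjusted p = 0.038). D430019H16Rik, a gene with a clone name, completed the group at 391 to 588 in the F1 against 72.8 to 218 in the parents. With the Xist term neither class kept a gene, though the deviations of all 4 and all 8 genes kept their sign. Deviations with that term were 1.73 for Sult1e1, 1.94 for D430019H16Rik, 0.91 for Nrep and 0.33 for Gab1. Leaving out 1 array gave 1 to 4 above and 2 to 7 below both.

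Below both parents, Tuba8, an alpha-tubulin, gave 75.2, 92.5 and 76.6 in the F1, 250, 313 and 500 in BALB/c, and 150, 377 and 311 in DBA. The F1 was 1.61 ± 0.26 below the mid-parent (adjusted p = 0.0018), and all 3 F1 arrays were under the dim limit of 103.7. Slc22a18, an organic cation transporter expressed from the maternal copy in many tissues, gave 238, 209 and 230 in the F1 against 294 to 468 in BALB/c and 453 to 533 in DBA, a deviation of -0.87 ± 0.16 (adjusted p = 0.0065). Syngr1, a vesicle membrane protein, gave 236 to 278 in the F1 and 454 to 665 in the parents. Its second probe set deviated by -0.10, against -0.97 for the brightest.

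The other genes below both parents shifted by less. Glo1, the glyoxalase that detoxifies methylglyoxal, gave 3560, 3950 and 3770 in the F1, 5640, 5310 and 5380 in BALB/c, and 5050, 4800 and 5020 in DBA, a deviation of -0.46 ± 0.08 (adjusted p = 0.0026). Its second probe set deviated by -0.49. Ndufa8, a subunit of respiratory complex I, deviated by -0.36 ± 0.07, Papola, the canonical poly(A) polymerase, by -0.40 ± 0.07, and Smim20, a factor of cytochrome oxidase assembly, by -0.49 ± 0.11. For Papola a second probe set deviated by -0.03. The second probe set of Smim20 deviated by -0.1 and the dimmest by -0.59, and its mid-parent call stayed in 1 of the 9 fits that each left out 1 array. BC003965, known here by a clone name, deviated by -0.39 ± 0.08. In each of these 5 genes the 3 F1 arrays lay below all 6 parental arrays.

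The remaining 9 genes off the mid-parent were called against it but met no class. Penk, the precursor of enkephalins, gave 2590, 3090 and 3020 in the F1 against 1010 to 1110 in BALB/c and 843 to 1720 in DBA (deviation 1.31 ± 0.28, adjusted p = 0.033). Sulf2, which removes sulfate from heparan sulfate, gave 3730, 6940 and 6600 against 1900 to 3180 and 2850 to 3270. Jchain, which joins IgA and IgM into polymers, gave 964, 615 and 535 in the F1, 2290, 2770 and 3420 in BALB/c, and 1390, 1310 and 1250 in DBA, a deviation of -1.46 ± 0.30 (adjusted p = 0.02). For these 3 genes the F1 arrays did not overlap the parents. Of the 9 fits that each left out 1 array, the mid-parent call stayed in 1 for Penk, 2 for Sulf2 and 6 for Jchain. The other 6 were Tnk2, above the mid-parent, and Mrpl12, Pter, Rpp14, Tgds and Ttc39c, below it.

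Gene lists of cell types and pathways, chosen with earlier results of these data known, held few genes off the mid-parent. None of the 38 lists had more than 1 called member, so the lists are described by the F1's place between the parents. In bulk tissue, fewer cells of a type and less RNA per cell cannot be told apart. Of 10 B cell markers, 6 were called lower in DBA than in BALB/c and 6 lower in the F1 than in BALB/c, where 7.76% and 2.68% of all genes were called in either direction. The medians over the list were -1.04 and -1.03 against 0.00 and 0.02 for all genes. Ms4a1, the CD20 antigen, gave 920, 1160 and 1330 in BALB/c, 474, 372 and 370 in the F1, and 391, 437 and 328 in DBA. Cd79a, a signalling chain of the B cell receptor, gave 765, 1050 and 1200, then 490, 333 and 486, then 422, 362 and 417. Ms4a1, Cd79a, Cd79b, Blk, Cxcr5 and Spib had F1 positions (0 for BALB/c, 1 for DBA) of 0.77 to 1.02. Their differences from DBA ran from -0.02 to 0.32, and the median F1 minus DBA difference of the list was 0.06. The F1 count fell to 1 of 10 without BALB/c control replicate 2 or 3 or F1 control replicate 2, to 4 without F1 control replicate 1, and to 0 with the Xist term. With that term the median F1 minus BALB/c difference of the list was -0.85. Of 10 plasma cell genes tested, 2 were called lower in the F1 than in BALB/c, Jchain and Mzb1 (2.68% of all genes in either direction). The median F1 minus BALB/c difference of that list was -0.18.

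Of 16 heat shock and chaperone genes, 10 were called lower in DBA and 6 lower in the F1 than in BALB/c (7.76% and 2.68% of all genes in either direction), with medians of -0.55 and -0.53 over the list. In the F1 the other 10 were not called. The 10 called between the strains had F1 positions of 0.43 to 1.1, and 9 were nearer DBA. Hsph1, an Hsp110 co-chaperone, gave 5720, 4990 and 4980 in BALB/c, 1860, 1450 and 1510 in the F1, and 1120, 1180 and 1200 in DBA. Hspa8, the constitutive Hsp70, gave 22200, 23200 and 22500, then 10200, 12600 and 11700, then 9320, 11000 and 13400. For both genes every F1 array was below every BALB/c array. Dnajb1, Hsp90aa1, Hspd1 and Hspe1 were also lower in the F1 than in BALB/c by limma. F1 positions were 0.79 for Hsph1, 0.95 for Hspa8, 0.88 for Dnajb1 and 1.06 for Hsp90aa1. Hspa1a and Hspa1b, the stress-inducible Hsp70 genes, were lower in DBA, and their F1 differences from BALB/c, -0.84 and -0.99, were not called. The list's mean was at least 11.90 in every BALB/c array, 11.33 to 11.44 in the F1 and 11.26 to 11.35 in DBA. With the Xist term the F1 count fell to 3 of 16, and the list's median F1 minus BALB/c difference was -0.41. Without DBA control replicate 2 the strain count fell to 6.

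Brown and beige adipocyte genes split between the parents. Of 9 tested, 4 were called higher and 1 lower in DBA than in BALB/c (7.76% of all genes). Against BALB/c the F1 was called higher for 1 and lower for 1 (2.68% of all genes). Elovl3, a fatty acid elongase of cold-activated fat, gave 188, 133 and 250 in BALB/c, 171, 186 and 164 in the F1, and 1640, 962 and 1690 in DBA, and the F1 was lower than DBA by 2.83 (adjusted p = 0.0028). Otop1, a proton channel, lay at the other side, with 328, 523 and 483 in the F1, 318 to 1120 in DBA and 48.6 to 70.4 in BALB/c. Dio2, the deiodinase that activates thyroid hormone, was at 84.5 to 137 in the F1 and 101 to 112 in DBA, below the 314 to 338 of BALB/c. Ucp1, the uncoupling protein of thermogenic fat, was at 4.0 to 29.6 in the F1 and 54.2 to 486 in DBA, so the DBA arrays were far from each other.

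Clock genes with a strain difference sat near the middle. Per1, a light- and glucocorticoid-responsive repressor, gave 964, 1050 and 977 in BALB/c, 1380, 1560 and 1380 in the F1, and 1800, 1940 and 2330 in DBA, a position of 0.52. Positions were 0.61 for Nfil3, 0.60 for Clock and 0.40 for Ciart, all on the log2 scale. For these 4 genes limma's adjusted p for the F1 against either parent was between 0.14 and 0.71. Sgk1, a kinase induced by glucocorticoids, was 1.03 higher in the F1 than in BALB/c (adjusted p = 0.013), at a position of 0.85. Mtor, the growth-controlling kinase, had a strain difference of 0.50 (adjusted p = 0.0086) and an F1 position of 0.43. Its F1 differences were 0.22 from BALB/c (adjusted p = 0.44) and -0.28 from DBA (adjusted p = 0.36).

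Type I interferon-stimulated genes were near the mid-parent in the untreated F1. Of 27, 1 was called, Xaf1, with 3 at an unadjusted p under 0.05 (9.39% of all genes were), and the median deviation was 0.17 against 0.02 for all genes. On day 3, 26 of the 27 were called above the mid-parent, as were 412 of all 12590 genes. The median deviation of the list was then 2.07, against -0.02 for all genes. Among 11 genes of MHC class I presentation the untreated median was -0.04, and limma called none (none also at an unadjusted p under 0.05). The 17 respiratory chain genes all lay below the mid-parent, by 0.07 to 0.38 with a median of -0.22, and limma called none, with 6 at an unadjusted p under 0.05. Fibroblast and matrix genes (14 tested, median 0.22) and macrophage genes (15 tested, median 0.25) also held no call, with 5 and 3 at an unadjusted p under 0.05. Imprinted genes, which are expressed from a single parental copy, formed a list of their own, and the direction of the cross is not in the labels. Beside Slc22a18, Nnat, a paternally expressed proteolipid, rose to 9290, 13400 and 14200 in the F1 from 836 to 4090 in BALB/c (adjusted p = 0.043), with 1960 to 5130 in DBA. Its deviation from the mid-parent was 2.43 ± 0.71 (adjusted p = 0.17). Nnat was also 1 of 4 autosomal genes called between low-Xist and high-Xist arrays among the other 23 arrays. Rasgrf1, an exchange factor for Ras expressed from the paternal copy, was lower in the F1 than in BALB/c by 2.04 (adjusted p = 0.0036), at 24.5 to 115 in the F1, 312 to 381 in BALB/c and 103 to 138 in DBA.

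The day 3 arrays, all with high Xist, gave a second reading of the F1 against its parents that shares no array with the first. There the F1 was called against the mid-parent at 539 genes (4.28%). Of the 39 untreated genes, 31 deviated the same way on day 3 and 12 were called the same way. The median size of the deviation was 0.97 untreated and 0.26 on day 3, where the untreated value is the one that chose the genes. For the 18 with a called strain difference, 17 kept the sign and 8 were called. For the 21 without one, 14 kept the sign and 4 were called. Glo1 was below both parents in both settings, with deviations of -0.46 untreated and -0.52 on day 3 (adjusted p = 5e-05). Ildr2, Tmem45b, Mndal, Rarres1 and Mrap2 were called above the mid-parent in both. Of these, Tmem45b, Mndal, Rarres1 and Mrap2 were not called against the linear mid-parent untreated. An F1 at the linear mean of parents that differ lies above the log2 mid-parent in any arrays. On day 3 the F1 was at 53.7% of the higher parent for Mrap2, 68.2% for Rarres1, 94.9% for Mndal and 185% for Tmem45b. Day 3 deviations from the linear mid-parent were not tested. Sult1e1 deviated by 0.22 on day 3 (adjusted p = 0.91) and Tuba8 by 0.09 (adjusted p = 0.92).

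The change in deviation from untreated to day 3 was called at 196 genes (1.56%), and 12 of the 39 were among them. It was positive for Xaf1 and Gbp2b, which moved further above the mid-parent. Papola, Jchain, Syngr1, Tgds, Ttc39c and Tuba8 moved up from below it, to estimates 0.01 to 0.26 above it. Sult1e1, D430019H16Rik, Slc16a12 and Angptl7 moved down from above it, to estimates between -0.26 and 0.22. Among the other 23 arrays of the series, 8 with low and 15 with high Xist, limma called none of the 39 genes for Xist level within groups (5 at an unadjusted p under 0.05) and 4 autosomal genes in all. The part of Xist level in the untreated deviations was not tested beyond these values.

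**Figure D5:**
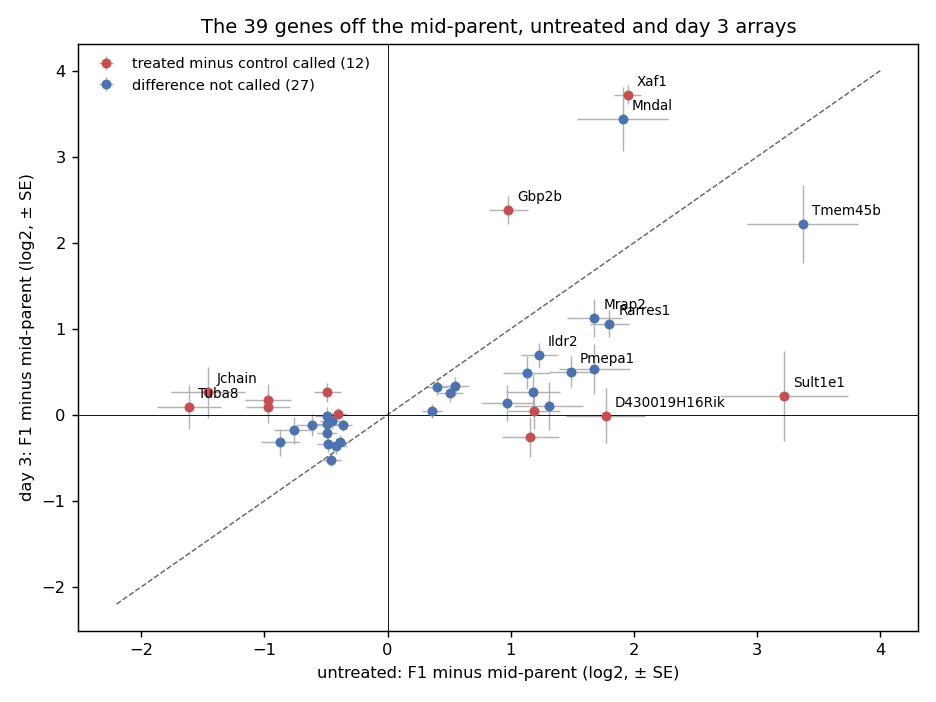
F1 minus mid-parent (log2, ± SE) for the 39 genes off the mid-parent, in untreated arrays (x axis) and day 3 arrays (y axis), with the dashed line marking equal values. Red points are the 12 genes whose change between the settings was called; Xaf1 and Gbp2b lie above the line, and Sult1e1 and Tuba8 lie near 0 on day 3.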

How the data were processed

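Total RNA of mesentery was measured on single-colour mouse expression arrays (45101 probe sets). The deposited intensity values are linear signals. GCOS and MAS5, without versions, are the programs given in the submitters' processing notes. In the deposited table the 2% trimmed mean of every array is 500. Genes were named from the platform annotation: 34958 probe sets had 1 symbol, 932 several and 9211 none; chromosomes came from RefSeq. The brightest probe set above 103.7 (the median of all values) on at least 3 arrays stood for a gene. Log2(signal + 24.9, the 25th percentile) was fitted with limma 3.58.1 in R 4.3.3, using 10 groups of 32 arrays, a variance trend and Benjamini-Hochberg adjustment over 13016 genes; 12590 autosomal genes are reported. A linear mid-parent was tested through the delta method. Position is the share of the way between parents. Named genes were the 10 largest rises and falls, up to 8 genes a class, genes expressed in 1 parent, list members (called, or else up to 3 with the largest deviation) and the Ifi200 and imprinted genes; not all are printed. The genes and the 38 lists (494 of 560 symbols matched) were chosen with earlier results of these data known. The fit was tested on simulated data. The number of arrays limits the precision. Alternatives covered the offset, dim filter, normalization, arrays fitted, variance trend, an Xist term, the linear scale, probe set rule, adjustment and leaving out each array.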

Additional observations from a re-analysis of the deposited data

Results flagged for a closer look

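For 12 genes the F1's deviation from the mid-parent differed between untreated and day 3 arrays by a test of the difference itself (limma, adjusted p under 0.05). Day 3 minus untreated was 1.77 for Xaf1 (adjusted p = 3.6e-07) and 1.41 for Gbp2b (adjusted p = 0.00064), both further above the mid-parent on day 3. It was 1.70 for Tuba8, 1.72 for Jchain, 1.14 for Syngr1, 1.06 for Ttc39c, 0.75 for Tgds and 0.41 for Papola, which were below the mid-parent untreated and within 0.26 of it on day 3. It was -3 for Sult1e1, -1.77 for D430019H16Rik, -1.42 for Slc16a12 and -1.14 for Angptl7, which were above the mid-parent untreated and within 0.26 of it on day 3. The F1 arrays also went from low to high Xist between these settings, so the dose, the time and what Xist marks cannot be told apart for these changes.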

How the results depend on the processing

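Of the 39 deviations, 2 changed sign under an alternative: against the linear mid-parent Gbp2b was at -0.01 and Mndal at -0.02. Ildr2 and Pmepa1 stayed called under all 21 alternatives, single arrays left out included. Fitting the 9 arrays alone gave 61 genes above and 67 below the mid-parent (34 of the 39 among them), 576 against BALB/c, 251 against DBA, and 45 additive, 19 BALB/c-like, 33 DBA-like, 15 above and 24 below both. The Xist term gave 5 above and 0 below (limma), 88 against BALB/c, 62 against DBA, classes of 7 additive, 1 partly dominant, 1 BALB/c-like, 3 DBA-like, 0 above and 0 below both, and a median position of 0.55. Genes below both fell to 5 with quantile normalization, 4 with median centring and 3 with the mean over probe sets. Median centring also gave 2 above both, a median position of 0.57 and 39% of 41 calls above the mid-parent, against 53.8% of 39. The linear mid-parent gave 0 partly dominant genes and 36.8% of calls above. Restricting positions to genes whose next probe set gave the same direction, chosen after seeing the data, moved the median to 0.64. The cause of these changes was not tested.

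Leaving out each array in turn gave 13 to 24 genes above and 6 to 22 below the mid-parent, 624 to 963 between the strains, 155 to 333 against BALB/c and 92 to 153 against DBA. It gave 13 to 19 additive, 2 to 3 partly dominant, 2 to 8 BALB/c-like, 4 to 10 DBA-like, 1 to 4 above both and 2 to 7 below both. Calls above the mid-parent fell by over 1.5 times without F1 replicate 2 (13), and calls below without F1 replicate 1 (8), 2 (7) or 3 (6). Calls against BALB/c did so without BALB/c replicate 1 (222), 2 (202) or 3 (165) or F1 replicate 1 (206) or 2 (155), against DBA without F1 replicate 3 (96) or DBA replicate 3 (92), and between strains without BALB/c replicate 3 (624) or DBA replicate 2 (651). The median position stayed between 0.59 and 0.62. No paired analysis was possible because the labels give the arrays no replicate numbers. The number of arrays, 3 a group, limits what could be called.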
